A study of Schmidtea mediterranea with 18 samples.

Results

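A set of 77 transcripts was described that had lower mean levels in regenerating planarians after beta-catenin-1 RNAi (Bcat RNAi) and levels near those of control RNAi after APC RNAi. They were chosen from 82955 SmedASXL transcripts by mean CPM (reads scaled to 1000000 aligned reads of a library) over 6 days, with 0.1 CPM added to each mean. The rule kept transcripts with a control RNAi value of at least 2.1, a Bcat RNAi value of at most 0.55 times control RNAi, and an APC RNAi value above 0.67 and below 1.2 times control RNAi. Of 15488 transcripts past the control RNAi level, 194 met the Bcat RNAi limit, and the members were 39.7% of these. All differences in mean level between treatments therefore come from the choice of members. They are given as a description, and where counts of calls from a fit over all transcripts are printed for these differences, the rule had set them and they test nothing.

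The animals were Schmidtea mediterranea of the asexual clonal strain CIW4, a freshwater flatworm with pluripotent stem cells that rebuild lost body regions. Groups were fed double-stranded RNA against apc (APC RNAi), against Smed-Bcatenin1 (Bcat RNAi) or against GFP, a sequence foreign to the worm (control RNAi). Every group had 3 feeds and was amputated 3 days after the last one, and polyA RNA of trunk fragments was sequenced daily from day 1 to day 6. Titles and tissue labels give trunks, although tail pieces are mentioned in the protocol for the treatment. The series text states that RNA from 3 biological replicates was combined, which leaves 1 pooled library for a treatment on a day, 18 in all. An SD here is the spread over 6 days within a treatment. The p-values speak to how steady an effect or trend was from day to day and carry nothing on variation between animals. In bulk RNA of fragments, fewer cells of a type and less RNA per cell cannot be told apart.

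Beta-catenin carries the canonical Wnt signal to the nucleus, where it acts with TCF/LEF factors on transcription. The apc protein belongs to the complex that marks beta-catenin for breakdown. In planarians, loss of beta-catenin-1 turns regenerating posterior ends into heads, and loss of apc turns anterior ends into tails. The files give identifiers only, with no gene names, so no function could be assigned to a member, and the targeted transcripts could not be checked. Read counts were not divided by transcript length, so levels are compared between libraries and not between transcripts.

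**Figure D1:**
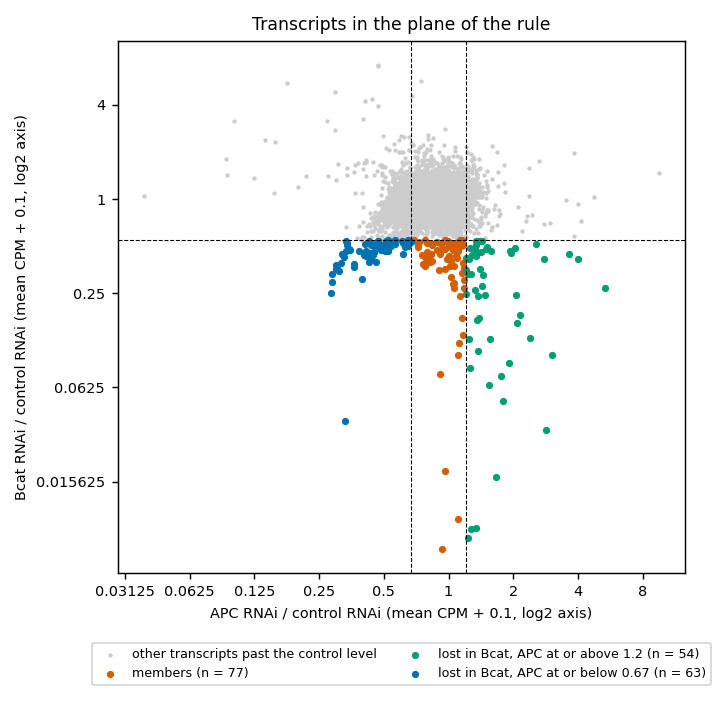
Each point is 1 transcript past the control RNAi level, with its APC RNAi over control RNAi ratio on the x axis and its Bcat RNAi over control RNAi ratio on the y axis (means over 6 days plus 0.1 CPM, log2 axes). Dashed lines mark the limits of 0.67, 1.2 and 0.55, and the 77 members lie between the 54 transcripts with a higher and the 63 with a lower APC RNAi ratio.

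Aligned reads ranged from 41549185 to 58308153 per library. A pair of libraries stood apart from their treatments on principal components of 12976 transcripts. Bcat RNAi day 1 had a score of 7.27 on the first component (55.3% of the variance), against 19.3 to 37.8 for the other Bcat RNAi libraries. APC RNAi day 5 had 24.7 on the third (9.93%), against -7.02 to 9.52 for the other APC RNAi libraries. Results that change without these libraries are given with both values.

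The label "steady in APC" holds on the scale of the rule and not on every scale. The median member stood at 101.6% of control RNAi in APC RNAi per aligned reads, at 120.4% after TMM scaling and at 126.9% after RLE scaling, which correct for a shift in composition between libraries. TMM factors averaged 0.888 over the APC RNAi libraries, 1.07 over Bcat RNAi and 1.06 over control RNAi. On the TMM scale 35 of the 77 remained within the rule, and the other 42 reached or passed the limit of 1.2 in APC RNAi. The median Bcat RNAi level hardly moved, at 44.9% of control RNAi per aligned reads and 44.5% after TMM scaling, and none of the 77 left the rule on that side. CPM values below are per aligned reads, as in the rule.

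The size of the loss in Bcat RNAi varied widely among the members. The quartiles of the level retained were 36.3% and 51.3% of control RNAi. Only 4 retained at most 10%, another 5 retained between 10.04% and 24.1%, and 27 retained 50% or more. Percentages of control RNAi in this text are ratios with 0.1 CPM added to both sides, which raises them where levels are low. The member at 10.04% had means of 0.205 CPM in Bcat RNAi and 2.94 CPM in control RNAi, and would be below 10% without the added 0.1 CPM. At the edge of the rule, the last member inside had 20.7 CPM in Bcat RNAi and 37.8 CPM in control RNAi, a ratio of 0.5496, and the first transcript outside had 12.2 and 22.1 CPM, a ratio of 0.5516. On the APC RNAi side the last member below 1.2 had a ratio of 1.18 and the next transcript 1.21, and the last above 0.67 had 0.689 and the next 0.668. The member with the lowest control RNAi level had a mean of 2.38 CPM, and the nearest transcript under that limit 1.93 CPM.

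The members near complete loss in Bcat RNAi were SmedASXL_012097, SmedASXL_002629 and SmedASXL_051528. The first had the lowest ratio of all 77. SmedASXL_012097 had 170.4, 62.4, 58.1, 61.9, 78.8 and 72.8 CPM in APC RNAi from day 1 to day 6, 1.56, 0.364, 0.213, 0.0478, 0.197 and 0.186 CPM in Bcat RNAi, and 170.5, 89.7, 78.8, 56.6, 67.1 and 80.6 CPM in control RNAi. The Bcat RNAi libraries held 75 reads at day 1 and 2 to 21 at later days, all far below either other treatment, while APC RNAi and control RNAi overlapped and both peaked at day 1. Its means were 84.1 CPM ± 43.0 in APC RNAi, 0.428 CPM ± 0.564 in Bcat RNAi and 90.5 CPM ± 40.8 in control RNAi (SD, n = 6 days). With 0.1 CPM added to both means Bcat RNAi retained 0.583% of control RNAi, and less without it.

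SmedASXL_002629 had the second lowest ratio and a similar course. Its levels were 59.2, 30.2, 24.7, 27.2, 29.5 and 25.8 CPM in APC RNAi, 0.479, 0.208, 0.0853, 0.0239, 0.138 and 0.0825 CPM in Bcat RNAi, and 48.2, 36.4, 30.0, 19.9, 20.5 and 23.0 CPM in control RNAi. The 6 Bcat RNAi libraries together held 51 reads, and every one lay below all libraries of the other treatments. SmedASXL_051528, named after its values were seen, had 42.4, 19.1, 17.0, 17.7, 24.0 and 21.6 CPM in APC RNAi, 0.979, 0.503, 0.384, 0.0478, 0.138 and 0.0825 CPM in Bcat RNAi, and 41.0, 25.1, 24.2, 18.6, 18.4 and 20.8 CPM in control RNAi. These 3 members shared a high day 1 in APC RNAi and control RNAi and, within Bcat RNAi, their highest level at day 1 and their lowest at day 4.

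SmedASXL_006667, also named after its values were seen, was the fourth member below 10% with 0.1 CPM added to the means, and differed in its course. It had 191.8, 209.3, 215.8, 212.5, 204.8 and 221.8 CPM in APC RNAi, 18.4, 17.0, 17.3, 17.1, 17.2 and 17.8 CPM in Bcat RNAi, and 218.1, 222.2, 233.1, 228.6, 240.0 and 238.0 CPM in control RNAi. Bcat RNAi was thus at 17.5 CPM ± 0.532 on every day, with no further loss after day 1, and no treatment showed a called trend over days. APC RNAi averaged 209.3 CPM ± 10.3 and control RNAi 230.0 CPM ± 8.71 (SD, n = 6 days), and their libraries overlapped at the edge. Of the 5 members next in line, 4 had control RNAi means from 2.44 to 4.41 CPM and Bcat RNAi means from 0.205 to 0.443 CPM, and the other is SmedASXL_003729, described with the slopes.

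**Figure D2:**
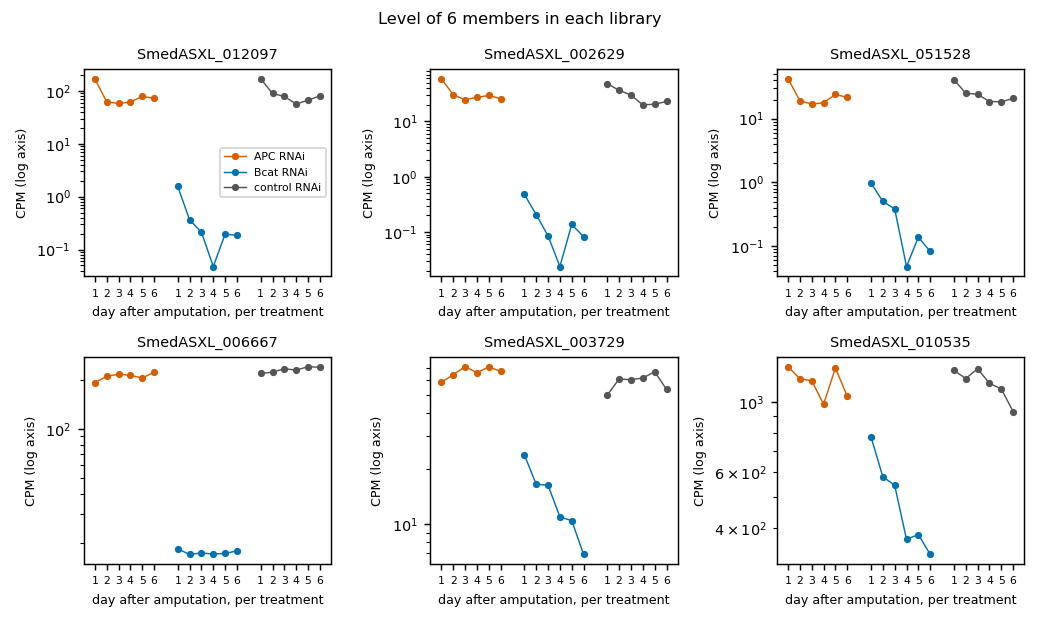
CPM on a log axis for 6 members in each of the 18 libraries, with the days 1 to 6 of APC RNAi, Bcat RNAi and control RNAi from left to right. SmedASXL_006667 stays near 17.5 CPM in Bcat RNAi, while the Bcat RNAi levels of the other 5 members shown go down after day 1.

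The members with the most reads were SmedASXL_010535 and SmedASXL_073532, which together held 34.5% of the members' summed control RNAi CPM. SmedASXL_010535 had 1289, 1181, 1164, 982.2, 1277 and 1040 CPM in APC RNAi, 776.3, 581.0, 546.5, 369.3, 382.3 and 331.0 CPM in Bcat RNAi, and 1255, 1183, 1270, 1143, 1097 and 931.6 CPM in control RNAi. Bcat RNAi lay below both other treatments at every day and was lowest at day 6, whereas APC RNAi and control RNAi overlapped. SmedASXL_073532 averaged 933.1 CPM ± 122.6 in APC RNAi, 418.1 CPM ± 145.2 in Bcat RNAi and 866.2 CPM ± 104.8 in control RNAi (SD, n = 6 days). Its level was between 0.723 and 0.862 times that of SmedASXL_010535 in all 18 libraries. Over the 5 members with the highest control RNAi CPM, log2 levels correlated pairwise with r = 0.951 to 0.998 across the 18 libraries, which share the treatments and the libraries themselves. The sources used here do not state where the counting put a read that matched several alike transcripts, and the split of reads between such transcripts is uncertain.

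Control RNAi means of the 77 members ran from 2.38 to 1147 CPM with a median of 16.8 CPM. By control RNAi level, Bcat RNAi retained a median of 46.0% in the 19 members below 5 CPM, 43.9% in 9 between 5 and 10 CPM, 48.8% in 29 between 10 and 50 CPM, 38.3% in 7 between 50 and 100 CPM and 48.3% in 13 of at least 100 CPM. Summed over the members, the level was 5596 to 6229 CPM in APC RNAi, 2049 to 3552 CPM in Bcat RNAi and 5437 to 6391 CPM in control RNAi. The Bcat RNAi sums lay below all others, and the highest of them was day 1.

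**Figure D3:**
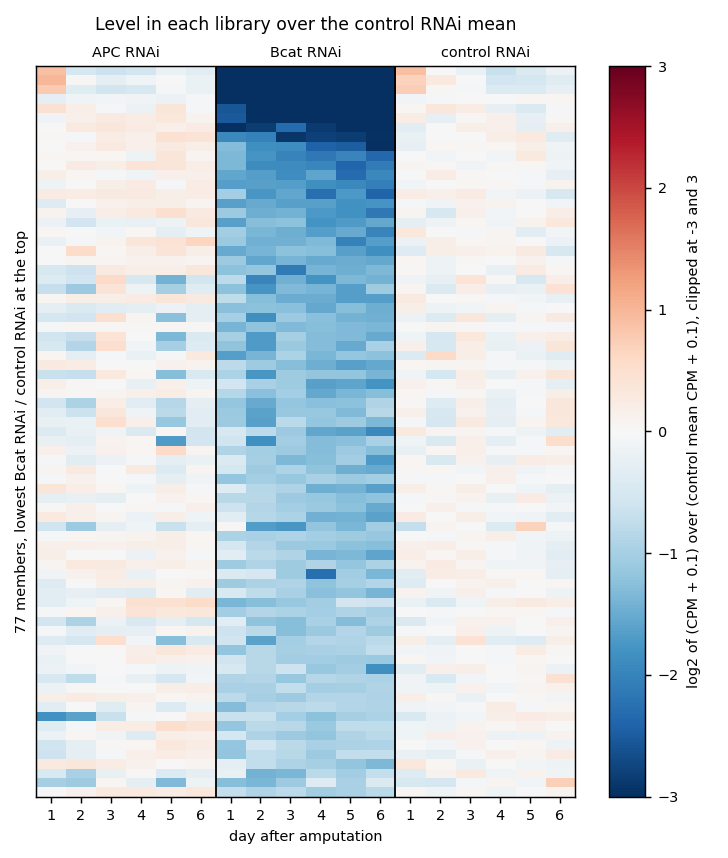
Each row is 1 of the 77 members, ordered by Bcat RNAi over control RNAi with the lowest at the top, and each column 1 library, by treatment and day. Colour gives the log2 of CPM plus 0.1 over the member's control RNAi mean plus 0.1. All 6 Bcat RNAi columns are blue over most rows, palest at day 1, and the APC RNAi columns hold rows on both sides of 0.

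In 72 of the 77 members every Bcat RNAi library lay below every control RNAi library, a separation that 5.48% of all transcripts past the control RNAi level showed. Since the rule used these means, nothing is read from that count. The ranges overlapped in SmedASXL_016946, SmedASXL_061421, SmedASXL_067251, SmedASXL_054521 and SmedASXL_017469. In 3 of these 5 Bcat RNAi exceeded control RNAi at day 1 alone. SmedASXL_061421, for example, had 7.65, 5.42, 9.65, 10.6, 7.21 and 9.52 CPM in APC RNAi, 11.8, 3.57, 3.39, 5.09, 4.40 and 5.55 CPM in Bcat RNAi, and 7.03, 12.3, 11.6, 8.76, 18.8 and 11.1 CPM in control RNAi. For description only, the edgeR quasi-likelihood fit of all 18 libraries with day as a factor put 77 of 77 members at an adjusted p under 0.05 on the lower side in Bcat RNAi, a count that the limit of 0.55 on the same libraries had set. The share over all 36235 transcripts tested was 11.0%. On the higher side there were 0 members (0 at an unadjusted p under 0.05, and 0 by DESeq2), and 9.45% of all. Against Bcat RNAi, APC RNAi was higher in 77 members (23.0% of all) and lower in 0 (0 at an unadjusted p under 0.05; 26.0% of all), again as the limits of the rule set it.

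The rule also bounded APC RNAi against control RNAi, so its calls in the same fit are no test of the members either. They were 42 higher (21.1% of all transcripts tested) and 1 lower (23.1%). The 42 are 54.5% of the members, and among the 13020 tested transcripts averaging 4 CPM or more 52.4% were called higher, a share near that of the members. The lower one, SmedASXL_017469, is the member nearest to the limit of 0.67. On the TMM scale of this fit the median log2 fold change was 0.28 in the members, 0.16 in the transcripts averaging 4 CPM or more and -0.11 in all tested. When TMM factors came only from transcripts with 4 CPM or more, 22 members were on the higher and 5 on the lower side. Of all 36235 tested, 2981 were then higher and 13995 lower, with a median of -0.28. The APC RNAi libraries lay wholly below control RNAi in 1 member, SmedASXL_013033 (8.18% of transcripts past the control RNAi level), and wholly above in 0 (0.788%).

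Day by day, the Bcat RNAi loss was smallest at day 1. The median member stood at 50.7% of same-day control RNAi at day 1, 46.1% at day 2, 41.8% at day 3, 42.5% at day 4, 41.1% at day 5 and 38.2% at day 6. At day 1, 44 of the 77 members were at or below 0.55 times control RNAi, which held for 0.781% of all transcripts past the control RNAi level. From day 3 on, 70 to 72 members were, against 1.76% to 2.79%. Bcat RNAi was below control RNAi at all 6 days in 74 members, beside 14.3% of transcripts past the control RNAi level. The lowest of the 6 ratios fell on day 6 in 24 members and on day 1 in 6.

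In APC RNAi a mean near control RNAi often covered days on which the level was not near it. The ratio was between 0.67 and 1.2 at all 6 days in 27 of the 77 members, and outside these limits at 3 or more days in 18. These counts were not made over all transcripts, so nothing particular to the members is read from them. The median went from 96.8% of same-day control RNAi at day 1 to 105.8% at day 6. The transcripts past the control RNAi level as a whole went from 89.0% to 94.5%. At day 1 and at day 2, 6 members each were at or below 0.67 times control RNAi (7.79%). The shares of all transcripts past the control RNAi level were 5.00% and 8.70%. At days 3 and 4 there were 0 such members, beside 4.93% and 7.85% of all. At day 5, 13 members were at or below 0.67 times control RNAi (16.9%, beside 18.04% of all transcripts past the control RNAi level). Of these 13, 10 had their lowest APC RNAi level in the day 5 library, which stood apart from the others. At day 6, 11 of the 13 were again at or below 0.67, among 12 members in all (15.6%, beside 7.36% of all transcripts past the control RNAi level). At the other end, 18, 19 and 17 members were at or above 1.2 times control RNAi at days 4, 5 and 6. These were 23.4%, 24.7% and 22.1% of the members, beside 5.05%, 6.04% and 6.86% of all transcripts past the control RNAi level. At days 1, 2 and 3 the shares were 7.79%, 7.79% and 6.49%, beside 1.86%, 3.29% and 3.53%. The rule bounded the APC RNAi means over these same libraries, so the shares describe the members and test nothing.

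**Figure D4:**
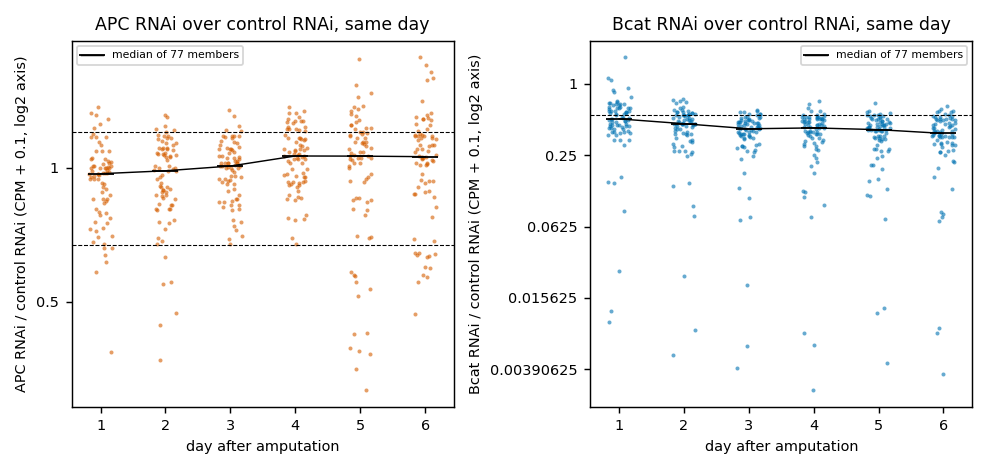
Same-day ratios to control RNAi for the 77 members (CPM plus 0.1, log2 axes), with APC RNAi on the left and Bcat RNAi on the right. Points are members, the black line joins their medians, and dashed lines are the limits that the rule sets on means over days. The Bcat RNAi median goes from 50.7% at day 1 to 38.2% at day 6. The APC RNAi points spread below 0.67 at days 5 and 6.

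A pair of members show how an APC RNAi level that varied between days met the limits on its mean. Both were named after their values were seen. SmedASXL_013078 had 123.0, 121.2, 238.6, 204.6, 80.9 and 141.7 CPM in APC RNAi, 101.6, 58.4, 93.8, 86.5, 85.5 and 73.6 CPM in Bcat RNAi, and 182.2, 136.2, 224.5, 166.2, 211.8 and 249.0 CPM in control RNAi. Its APC RNAi level was above control RNAi at days 3 and 4 and lowest at day 5, for a mean of 77.8% of control RNAi. SmedASXL_073611 had 3.29, 3.15, 4.14, 4.02, 1.13 and 2.57 CPM in APC RNAi, 2.499, 1.01, 1.81, 1.51, 1.57 and 1.92 CPM in Bcat RNAi, and 3.499, 2.85, 4.32, 3.14, 3.77 and 5.57 CPM in control RNAi. Here too the APC RNAi minimum was at day 5, where it lay below the Bcat RNAi library of that day.

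The order of days was not used by the rule, so trends over time could be tested, though a loss that deepens with time can help a transcript to reach the limit on its mean. Slopes are log2 units per day from an edgeR quasi-likelihood fit of treatment, day as a number and their interaction over all tested transcripts. In control RNAi 15 of the 77 members fell over the days (19.5%, beside 7.23% of all transcripts tested) and 0 rose (2.93%). With no adjustment 2 members rose at p under 0.05, and DESeq2 called 0 rising. The count of falling members was 4 without day 1 and 4 without day 6. Over all transcripts the falling calls dropped as well, from 2619 of 36235 tested to 314 of 37019 and 615 of 35993. The members' count was 9 when TMM factors came only from transcripts with 4 CPM or more, beside 1275 of all. It was 8 with loess offsets, which remove a shift with abundance, beside 1582 of all.

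The steepest falls in control RNAi were those of the same 2 members that had the lowest Bcat RNAi ratios. The control RNAi slope of SmedASXL_002629 was -0.29 (edgeR, SE 0.06, adjusted p = 0.00219), and its level went down from day 1 to day 4 and was higher again at day 6. In APC RNAi it was the 1 member called as falling, at -0.21 (SE 0.05, adjusted p = 0.0381, edgeR; 1.14% of all transcripts tested fell there). DESeq2 did not call it, and called SmedASXL_004544 and SmedASXL_013793 as falling instead. That of SmedASXL_012097 was -0.26 (edgeR, SE 0.08, adjusted p = 0.0363). That slope rested on day 1, the highest control RNAi library, and was -0.09 without it (adjusted p = 0.463, edgeR). It was not called without day 4 or day 5 either, nor by DESeq2 (-0.265, adjusted p = 0.241). With TMM factors only from transcripts with 4 CPM or more it was -0.218 (adjusted p = 0.0901, edgeR), and with loess offsets -0.215 (adjusted p = 0.105, edgeR), also not called. At the highest levels, SmedASXL_010535 (-0.12, SE 0.04, adjusted p = 0.0429, edgeR) and SmedASXL_073532 (-0.13, SE 0.04, adjusted p = 0.0291, edgeR) were called as falling, and neither was called without day 1 or without day 6.

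In Bcat RNAi 24 members fell over the days (31.2%, beside 2.25% of all transcripts tested) and 1 rose (2.87%). This test was added after the data were seen. The count was smaller with libraries left out: 10 members fell without the Bcat RNAi day 1 library, 8 without day 1 in all treatments and 14 without day 6. Falling calls over all transcripts dropped as well. They went from 816 of 36235 tested to 94 of 37302, 89 of 37019 and 252 of 35993 in the same order. Of the 15 members falling in control RNAi 12 also fell in Bcat RNAi, 80% of the first list and 50% of the second. The same overlap was not counted over all transcripts, so nothing particular to the members is read from it. The Bcat RNAi slope of SmedASXL_010535 was -0.26 (edgeR, SE 0.04, adjusted p = 0.000139), and its difference in slope from control RNAi was not called (-0.14, SE 0.05, adjusted p = 0.777, edgeR).

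SmedASXL_003729 was the 1 member whose slope in Bcat RNAi was called as lower than in control RNAi (0.0138% of all transcripts tested), and 0 were called as higher (0.0193%; 1 member at an unadjusted p under 0.05, and 0 by DESeq2). It had 58.6, 64.4, 71.1, 66.0, 71.0 and 67.1 CPM in APC RNAi, 23.7, 16.5, 16.3, 10.9, 10.5 and 6.86 CPM in Bcat RNAi, and 50.01, 61.0, 60.5, 61.8, 66.8 and 53.6 CPM in control RNAi. Bcat RNAi was below both other treatments from day 1 and went down at each later day, while APC RNAi and control RNAi overlapped and held their level. Bcat RNAi minus control RNAi, the slope difference was -0.32 (edgeR, SE 0.05, adjusted p = 0.00543). Without the Bcat RNAi day 1 library the difference was -0.305 (adjusted p = 0.0306, edgeR), and without day 1 in all treatments -0.26 (adjusted p = 0.295, edgeR). With day as a shared factor, the replicate block, 2 members were called: SmedASXL_003729 and SmedASXL_003924 (-0.20, SE 0.04, adjusted p = 0.0345, edgeR). Lower calls over all 36235 transcripts tested went from 5 without the block to 22 with it.

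**Figure D5:**
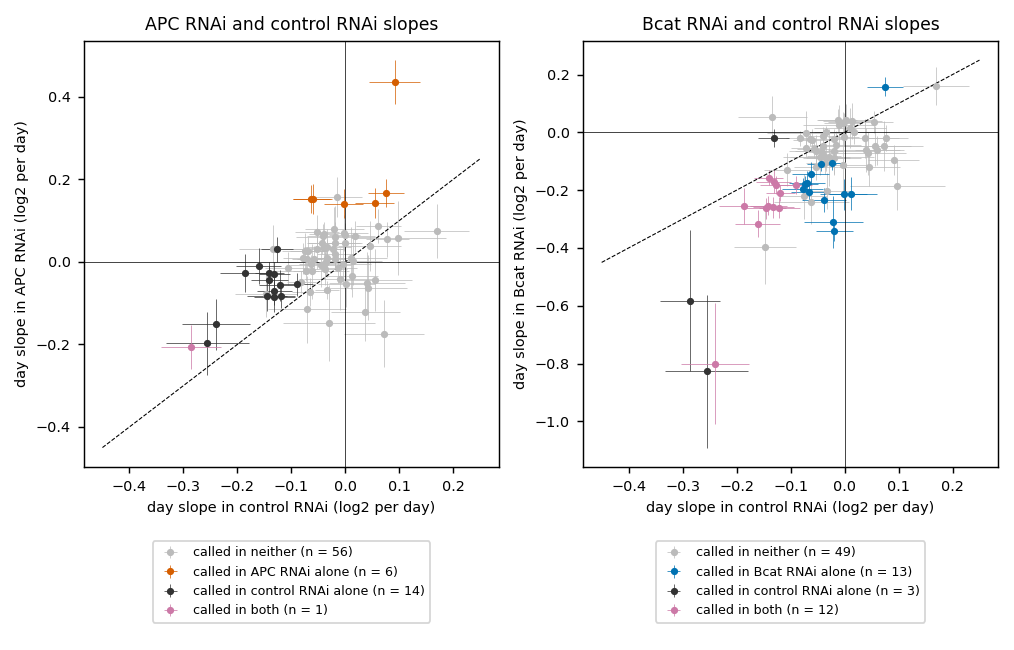
Day slopes of the 77 members in log2 units per day, with control RNAi on the x axis and APC RNAi (left) or Bcat RNAi (right) on the y axis. Bars are standard errors, colours mark slopes with an adjusted p under 0.05, and the dashed line is equality. In the Bcat RNAi panel 12 members are called in both treatments, and in the APC RNAi panel SmedASXL_003377 stands highest at 0.44.

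In APC RNAi 6 members rose over the days (7.79%, beside 1.58% of all transcripts tested), also a test added after the data were seen. They were SmedASXL_003377, SmedASXL_005583, SmedASXL_019556, SmedASXL_007934, SmedASXL_011424 and SmedASXL_019085. The count was 1 if day 1 was left out, 2 if day 2 was, and 3 if day 5 or the APC RNAi day 5 library alone was. Rising calls over all transcripts went from 571 to 82, 152, 675 and 538 in the same order. The number of falling members, 1, was 0 without day 1, 2, 4 or 6 and 4 without day 5. Falling calls over all went from 413 to 70, 154, 262, 207 and 1244 in that order. SmedASXL_003377 had 1.05, 1.23, 2.48, 3.80, 4.01 and 4.64 CPM in APC RNAi, 2.46, 2.46, 1.92, 1.63, 1.93 and 2.02 CPM in Bcat RNAi, and 2.88, 3.502, 3.72, 4.47, 4.71 and 4.54 CPM in control RNAi. At days 1 and 2 its APC RNAi level was below both other treatments, and at day 6 it was level with control RNAi, so its mean of 72.9% of control RNAi describes no single day. Its APC RNAi slope was 0.44 (edgeR, SE 0.05, adjusted p = 7.64e-05).

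Whether slopes differed between APC RNAi and control RNAi was tested as well. The edgeR fit called 0 members higher (0.0359% of all transcripts tested) and 0 lower (0.00276%). At an unadjusted p under 0.05 there were 15 members higher and 1 lower, beside 2272 and 648 of all 36235 transcripts tested. DESeq2 called 2 members higher and 0 lower, beside 46 and 2 of all. SmedASXL_003377 had the largest positive difference among the members, 0.34 (edgeR, SE 0.07, adjusted p = 0.0794). SmedASXL_007934 had the next largest positive one, 0.22 (SE 0.05, adjusted p = 0.127, edgeR), at 5.83, 6.58, 7.23, 8.74, 9.22 and 10.6 CPM in APC RNAi, 3.06, 2.41, 2.43, 2.63, 1.59 and 2.08 CPM in Bcat RNAi, and 6.02, 7.61, 7.06, 7.17, 6.78 and 5.95 CPM in control RNAi. With the replicate block 3 members were called: these 2, with adjusted p = 0.027 for SmedASXL_003377 and 0.0451 for SmedASXL_007934, and SmedASXL_019556 with 0.0212 (edgeR). Higher calls over all 36235 transcripts tested went from 13 in the fit without the block to 92 with it.

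SmedASXL_005583 was the 1 member that rose in Bcat RNAi. It had 109.0, 123.4, 141.9, 185.1, 186.4 and 198.8 CPM in APC RNAi, 52.0, 56.2, 61.3, 65.5, 91.3 and 88.7 CPM in Bcat RNAi, and 117.9, 101.0, 123.9, 152.0, 163.1 and 154.4 CPM in control RNAi. Every Bcat RNAi library lay below every library of both other treatments, which overlapped. Its slopes were 0.17 in APC RNAi (SE 0.03, adjusted p = 0.00819), 0.16 in Bcat RNAi (SE 0.03, adjusted p = 0.00547) and 0.08 in control RNAi (SE 0.03, adjusted p = 0.155; edgeR). The control RNAi slope depended on the scaling. It was called as rising with TMM factors only from transcripts with 4 CPM or more (0.112, adjusted p = 0.0133, edgeR). With loess offsets it was called too (0.121, adjusted p = 0.00632, edgeR). The rise in Bcat RNAi was not called without day 1 or without the Bcat RNAi day 1 library alone.

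The members differed from the other transcripts lost in Bcat RNAi in level and course, given here as values with no test, since all sets were cut from the same means. Bcat RNAi retained a median of 44.9% of control RNAi in the members, 32.9% in the 54 transcripts at or above 1.2 in APC RNAi and 47.3% in the 63 at or below 0.67. Median control RNAi levels were 16.8, 11.5 and 3.71 CPM in the same order. Of these sets, 15 of 77, 23 of 54 and 1 of 63 were called as falling over the days in control RNAi. In Bcat RNAi 24 of 77, 22 of 54 and 1 of 63 were called as falling. Few calls in the 63 do not mean level courses. Median Bcat RNAi slopes were -0.087, -0.156 and -0.133 log2 units per day in the same order, with 65, 43 and 58 slopes negative. Median control RNAi slopes were -0.038, -0.080 and 0.076.

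The authors' deposited table of APC RNAi against Bcat RNAi lists 74 of the 77 members, all with a higher level in APC RNAi. Log2 fold changes in the authors' deposited table run from 0.60 to 3.79 with a median of 1.25, and the highest belongs to SmedASXL_006667. The members not in the authors' deposited table are SmedASXL_003377, SmedASXL_012097 and SmedASXL_017469. Absence there does not mean equal levels: SmedASXL_012097 had the largest log2 fold change of the members in the edgeR fit, 7.94. Why it is absent was not tested.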

How the data were processed

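Members and tests were chosen with earlier results of these data known. The authors deposited raw read counts per SmedASXL transcript. Tools listed in the submitters' processing notes are Bowtie2 2.2.4, bcl2fastq 1.8.3 and DESeq2, with settings not given in the sources used here. The rows for total and unaligned reads (5.22% of reads unaligned) were left out of sums and tests. In the authors' deposited table, log2 fold changes and adjusted p-values of APC RNAi over Bcat RNAi were used as listed; its mean normalized signal, as deposited, and its score of the test statistic were not used.

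Counts were fitted with edgeR 4.0.16 in R 4.3.3: filterByExpr kept 36235 transcripts, the 77 members among them, and left out 46720 with 0.284% of the reads. TMM factors and the quasi-likelihood test were used, with Benjamini-Hochberg adjustment over all tested transcripts and a threshold of 0.05. Treatments were compared with day as a factor, and slopes in a fit with day as a number. Alternatives were RLE factors, TMM factors only from transcripts with 4 CPM or more, loess offsets, no filter, DESeq2 1.42.0, the other day model and leaving out each day, the Bcat RNAi day 1 library or the APC RNAi day 5 library. Steps were tested on simulated counts. Day is the replicate number: the labels give it as the shared sampling day. Same-day deviations correlated with r = 0.0859 to 0.69 between APC RNAi and control RNAi, -0.0783 to 0.604 between Bcat RNAi and control RNAi and 0.0512 to 0.597 between the knockdowns. No libraries were identical (lowest chi-square per degree of freedom 5.04).

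Transcripts named are the 2 members with the highest control RNAi level, the 2 with the lowest Bcat RNAi ratio and, per slope test, up to 2 called in each direction; all other transcripts were chosen after their values were seen, several because a count was small. Gene lists could not be counted without gene names.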

Additional observations from a re-analysis of the deposited data

Results flagged for a closer look

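Among 45 sets of 6 daily libraries checked (the named members and the members' sum, by treatment), 7 held 1 library far from the other 5. Chance flags about 1 in 20 sets, but 9 of the 14 members were picked after their values were seen, SmedASXL_051528 and SmedASXL_061421 among them, so the count cannot be set against that rate. All 7 were day 1 libraries that were the highest of their treatment. SmedASXL_012097 was flagged in all treatments, at 170.4 CPM in APC RNAi, 1.56 CPM in Bcat RNAi and 170.5 CPM in control RNAi. SmedASXL_002629 was flagged in APC RNAi at 59.2 CPM. SmedASXL_051528 was flagged at 42.4 CPM in APC RNAi and 41.0 CPM in control RNAi, and SmedASXL_061421 in Bcat RNAi at 11.8 CPM. The slope of SmedASXL_003729 differed between Bcat RNAi and control RNAi by -0.32 log2 units per day (adjusted p = 0.00543, edgeR interaction test).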

How the results depend on the processing

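Libraries were left out a day at a time, or as the Bcat RNAi day 1 or the APC RNAi day 5 library alone. The number of transcripts in the rule was 44 with CPM after TMM scaling, 35 of them among the 77, and 42 with RLE size factors, 29 of them among the 77. It ranged from 73 to 96 with libraries left out, and 55 of the 77 were kept whichever day was left out. Members higher in APC RNAi numbered 22 when TMM factors came only from transcripts with 4 CPM or more, and 36 to 46 with libraries left out. Members lower in APC RNAi, 1 in the fit reported, numbered 0 with RLE size factors, 0 with no replicate block, 0 with DESeq2, 5 when TMM factors came only from transcripts with 4 CPM or more, 4 with loess offsets and 0 to 3 with libraries left out.

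In control RNAi 1 member rose when TMM factors came only from transcripts with 4 CPM or more, 1 with loess offsets, 1 with no filter and 0 to 1 with libraries left out; 9 fell with the TMM alternative, 8 with loess offsets and 4 to 21 with libraries left out. Lower slopes in Bcat RNAi than in control RNAi numbered 2 with the replicate block (beside 22 of all transcripts tested) and 0 to 1 with libraries left out. Higher slopes in APC RNAi than in control RNAi numbered 3 with no filter, 3 with the replicate block and 2 with DESeq2. Over all transcripts tested these calls numbered 88, 92 and 46 in the same order. In Bcat RNAi 8 to 27 members fell and 0 to 2 rose with libraries left out. In APC RNAi 3 rose with RLE size factors and 1 to 7 with libraries left out; 2 fell with DESeq2, SmedASXL_002629 not among them, and 0 to 4 with libraries left out. Fits without a day have fewer libraries, and the number of calls over all transcripts also changed with the setting. No value of a member named by the rule reversed in 96 recomputations, and 7 lost their call. Most of the 96 were differences in level between Bcat RNAi and control RNAi. The limit on the Bcat RNAi mean had set these differences, so their keeping the call tests nothing. All 7 lost calls were among the slopes, those of SmedASXL_012097 in control RNAi and the slope difference of SmedASXL_003729. The fits without the APC RNAi day 5 library and the slopes within APC RNAi and Bcat RNAi were added after seeing the data. Depth limits the near-lost members: 8 members had under 20 reads in a Bcat RNAi library.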
